A study of Mus musculus with 6 samples.

Results

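The suppressors of cytokine signalling, Socs1 to Socs7, and Cish, which encodes CIS, were followed in tumor-associated macrophages (TAMs) of mice that carried or lacked a myeloid deleter of the PD-1 gene. The 8 genes were taken by their symbols and matched to Ensembl identifiers, and all 8 were found among the 55421 genes counted and among the 14469 genes that passed the expression filter. The control group was Pdcd1f/f, mice with loxP-flanked Pdcd1 and no Cre, and the other group was Pdcd1f/fLysMcre, mice with the same floxed Pdcd1 and Cre under the lysozyme M promoter. Both groups bore a fibrosarcoma, named M17 in the labels and MC17-51 in the study's methods, and gave CD11b+F4/80+ cells at day 15, with 3 libraries for each genotype. The study's methods give an age of 8 to 12 weeks for the mice and a gate of live CD45+CD11b+F4/80+Ly6G− cells, the latter described for another mouse line of the study. LysM Cre acts in macrophages, neutrophils and part of the monocytes, so it does not single out TAMs. The sources used here do not say whether a library came from 1 mouse or from a pool, so p-values measure the spread between these libraries.

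CIS and the SOCS proteins share a central SH2 domain, which binds phosphotyrosine, and a SOCS box at the C terminus, which recruits elongins and cullin-5 to ubiquitinate bound proteins. Cytokine receptors activate JAK kinases and STAT transcription factors, and STATs induce Cish, Socs1, Socs2 and Socs3, whose products then restrain the same receptors. In macrophages, CIS is the classical STAT5-induced brake on receptors of the GM-CSF type, SOCS1 restrains interferon and IL-4 signalling, and SOCS3 binds gp130 and the G-CSF receptor and limits IL-6 and G-CSF signalling while sparing that of IL-10. SOCS4 and SOCS5 are mostly known from the EGF receptor, and SOCS6 and SOCS7 from insulin and KIT signalling.

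STAT proteins bind palindromes of the form TTCNNNGAA, and the stretches that hold this motif are shown for the members in whose RefSeq promoter window it was found. RefSeq promoter sequences of GRCm38.p6, from 250 bases before to 50 bases after the annotated start, were matched for 4 of the 8 genes, Cish, Socs1, Socs3 and Socs4. The window of Cish held the motif at 2 places, with first bases 1 and 12 counted from the start, and that of Socs3 at 1 place, 154 bases before the start. Both windows lie inside the GENCODE spans given below for these genes, whose starts are farther upstream, so the positions hold for the RefSeq starts only. The motif reads the same on both strands, the 2 copies of Cish did not overlap, and of 32851 such windows 8.3% held it at least once and 0.457% at least 2 times. No copy was found in the windows of Socs1 and Socs4. The capitals mark the motif, in the 30 bases at chr9:107296654-107296683 on the plus strand for Cish and at chr11:117969502-117969531 on the minus strand for Socs3.
Cish: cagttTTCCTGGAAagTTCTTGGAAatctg
Socs3: agaaaccagccTTCTTAGAAgggagggggg

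The libraries held 41833823 to 51417209 counts, so that 3 counts corresponded to 0.0583 to 0.0717 CPM, which covers counting error only, and every member had at least 229 counts in each library. Lyz2, the locus that carries Cre, had 216864 ± 8638 normalized counts in Pdcd1f/f and 427 ± 33.4 in Pdcd1f/fLysMcre (SD, n = 3), and its paralog Lyz1 had 156 ± 25.9 and 3625 ± 179. The labels do not give the number of Cre alleles, and effects of this loss of Lyz2 cannot be told apart from those of Pdcd1. Pdcd1 itself had 13.0 ± 3.6 and 10.8 ± 4.4 normalized counts (SD, n = 3; log2 fold change −0.25, adjusted p = 0.771 from edgeR). Gene-level counts cannot resolve the floxed exons, so the deletion of Pdcd1 was not measured. The macrophage markers Adgre1, Itgam and Csf1r had 15469 normalized counts or more in every library, whereas Ly6g, the neutrophil antigen of the gate, had 2.95 at most. Summed Y-linked transcripts were 1545 to 1914 normalized counts in Pdcd1f/f and 6267 to 7233 in Pdcd1f/fLysMcre libraries, and Xist, the transcript of the inactive X chromosome, 17318 to 26511 and 8530 to 13137. Transcripts of both sexes were thus counted in every library. The study's methods state that males and females were used in equal number, but the mix in each library is not given, so a difference in it cannot be told apart from the genotype. Pdcd1f/f replicate 1 and Pdcd1f/fLysMcre replicate 2 stood apart from the other libraries of their genotype. The chi-square per gene was 24.8 and 43.0 between Pdcd1f/f replicate 1 and the other controls, and 5.42 between those. It was 20.2 and 27.0 between Pdcd1f/fLysMcre replicate 2 and the others of that genotype, and 13.7 between those, a smaller contrast. Over 10607 genes, which share libraries and base composition, the deviations of these libraries from the genotype mean followed GC content. Spearman rho was −0.759 and −0.696, against 0.187 to 0.714 in the others. The deviations of the 3 libraries of a genotype cancel, so opposite signs among them are partly built in. The third replicates, at 0.704 in Pdcd1f/f and 0.714 in Pdcd1f/fLysMcre, lay about as far out, so rho singles out the libraries that stood apart by sign only.

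In edgeR's test, with p-values adjusted over all genes tested, 0 of the 8 members were past an adjusted p of 0.05, where 5.43% of all genes were. At an unadjusted p under 0.05 there were 3 of 8 members, Cish, Socs3 and Socs4, beside 24.2% of all genes. DESeq2 and limma likewise gave 0 of 8 members past the adjusted threshold, beside 5.76% and 4.57% of their genes. At an unadjusted p under 0.05 both gave 3 of 8, beside 12.9% and 22.3%. The shares are over 26637 genes with any count for DESeq2 and 16552 for limma. Those of edgeR are over the 14469 genes that passed the filter, so the shares are not on the same genes. The libraries of the genotypes did not overlap for 1 of 8 members, Socs7, beside 27.2% of all genes. The median log2 fold change of the members was 0.07, with 5 above 0 and 3 below 0, and that of all genes −0.0026, with 7170 above and 7299 below. Every 95% interval of a member lay between −0.71 and 0.49 on the log2 scale. Under other settings some members passed. Leaving out Pdcd1f/f replicate 1 alone moved the count from 0 to 3, Socs3, Socs4 and Cish, where 21.6% of all genes passed, and leaving out both libraries that stood apart gave the same 3 (26.2%). In the remaining settings with a call, the members without a filter on low counts were Socs3 and Cish (7.32% of the 26637 genes with any count). With GC and length offsets Socs7 passed (20.2% of all genes), and with these offsets and the replicate block Socs7 and Cish (21.8%). With the offsets and Pdcd1f/f replicate 1 removed, chosen after seeing the data, Socs7 and Cish passed (23.1%).

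**Figure D1:**
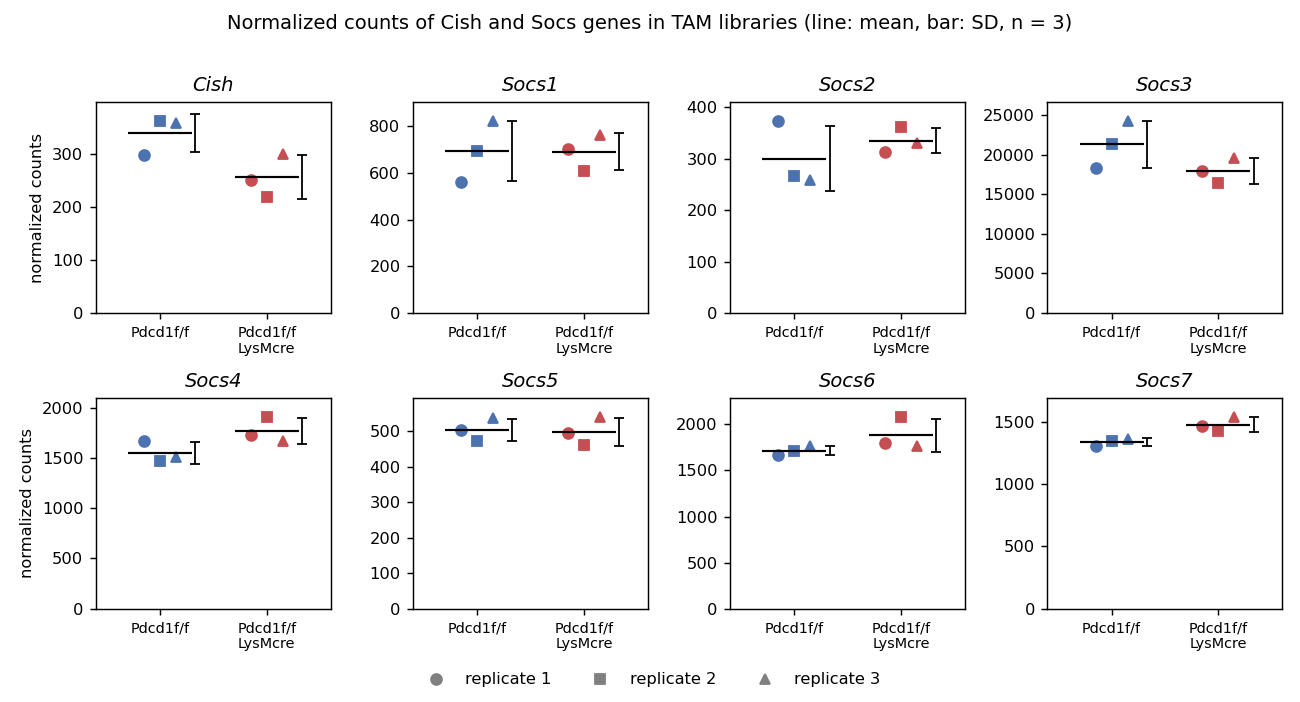
Normalized counts (raw counts divided by the library's size factor, vertical axes from 0) of the 8 genes in each of the 6 libraries, with the mean as a line and the SD as a bar beside it (n = 3). The Cish groups overlap, since the highest Pdcd1f/fLysMcre library (299.9) is just above the lowest Pdcd1f/f library (297.7), and Socs7 is the gene whose groups are separate.

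Cish (ENSMUSG00000032578, chr9:107296026-107302784, plus strand) was the member with the lowest p and, on the log2 scale, the largest difference between the genotypes. Its normalized counts, which are raw counts divided by the library's size factor, were 298, 361 and 358 in Pdcd1f/f replicates 1, 2 and 3. They were 251, 218 and 299.9 in Pdcd1f/fLysMcre replicates 1, 2 and 3. The groups met only at their edges, since the highest Pdcd1f/fLysMcre library, replicate 3, was just above the lowest Pdcd1f/f library, replicate 1. The mean was 339 ± 35.7 in Pdcd1f/f and 256 ± 41.2 in Pdcd1f/fLysMcre (SD, n = 3), a ratio of 0.758 with a 95% interval of 0.610 to 0.942. On the log2 scale the change was −0.40 with a standard error of 0.14, and it did not pass the threshold with all 6 libraries (adjusted p = 0.122 in edgeR). Without Pdcd1f/f replicate 1, the log2 fold change of Cish was −0.50 with an adjusted p of 0.0271 from edgeR, where 21.6% of all genes passed, and without both libraries that stood apart, a choice made after seeing the data, it was −0.39 with an adjusted p of 0.0273, where 26.2% passed. Leaving out any of the other 5 libraries singly gave −0.53 to −0.30 with an adjusted p of 0.0748 to 0.380. Its exons overlap 2 annotated genes on the other strand, Gm17040 over 261 bases and Gm17041 over 479, and each of these had at most 3 counts in any library.

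Socs3 (ENSMUSG00000053113, chr11:117966079-117970047, minus strand), the brake on gp130 and G-CSF receptor signalling, was by far the most abundant member. It had 18262, 21412 and 24220 normalized counts in Pdcd1f/f replicates 1, 2 and 3. In Pdcd1f/fLysMcre replicates 1, 2 and 3 it had 17892, 16396 and 19622. Pdcd1f/f replicate 1 fell inside the range of the other genotype, while replicates 2 and 3 lay above all 3 Pdcd1f/fLysMcre libraries. edgeR gave a log2 fold change of −0.24 (standard error 0.10, 95% interval −0.47 to −0.02, adjusted p = 0.178). Leaving out Pdcd1f/f replicate 1 gave −0.35 with an adjusted p of 0.0102, and leaving out both libraries that stood apart gave −0.29 with 0.00224. Leaving out Pdcd1f/f replicate 3 instead gave −0.14 with an adjusted p of 0.520, and leaving out Pdcd1f/fLysMcre replicate 2 gave −0.18 with 0.450. With offsets that remove each library's trend with GC content and gene length, Socs3 was at −0.06 with an adjusted p of 0.340.

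Socs1 (ENSMUSG00000038037, chr16:10782240-10785536, minus strand), the inhibitor of interferon signalling, had 563, 695 and 821 normalized counts in Pdcd1f/f and 704, 608 and 763 in Pdcd1f/fLysMcre libraries. All 3 Pdcd1f/fLysMcre libraries lay within the range of the controls, and the means were 693 ± 129 and 692 ± 78.4 (SD, n = 3). The log2 fold change was 0.00 with a 95% interval of −0.31 to 0.31 (adjusted p = 0.997 from edgeR), so changes of either direction within that interval remain compatible with these libraries. With the GC and length offsets it was 0.18 (interval 0.02 to 0.34, adjusted p = 0.103). Leaving out single libraries gave −0.14 to 0.14.

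Socs2 (ENSMUSG00000020027, chr10:95385362-95417180, minus strand), best known as the brake on growth hormone signalling, had 373, 267 and 260 normalized counts in Pdcd1f/f and 314, 362 and 330 in Pdcd1f/fLysMcre libraries. Pdcd1f/f replicate 1 was the highest of all 6 libraries, and the other controls were below every Pdcd1f/fLysMcre library. In edgeR's fit Socs2 was at a log2 fold change of 0.16 (interval −0.17 to 0.49, adjusted p = 0.543), the widest interval among the members. This value rested on single libraries, since it was 0.34 with an adjusted p of 0.0652 without Pdcd1f/f replicate 1, 0.09 with 0.851 without replicate 2, 0.06 with 0.886 without replicate 3, and 0.10 with 0.816 without Pdcd1f/fLysMcre replicate 2. Without both libraries that stood apart it was 0.29 with an adjusted p of 0.0876.

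Socs4 (ENSMUSG00000048379, chr14:47276931-47296102, plus strand) had 1672, 1469 and 1509 normalized counts in Pdcd1f/f and 1732, 1910 and 1667 in Pdcd1f/fLysMcre libraries. The groups overlapped by Pdcd1f/f replicate 1, which was just above Pdcd1f/fLysMcre replicate 3. Socs4 was at a log2 fold change of 0.19 (standard error 0.08, interval 0.01 to 0.37, adjusted p = 0.178 in edgeR), and 0.24 with an adjusted p of 0.0464 without Pdcd1f/f replicate 1. Without both libraries that stood apart it was 0.19 with an adjusted p of 0.0397, and with the GC and length offsets 0.08 with 0.369. Leaving out any of the other 5 libraries singly gave 0.13 to 0.23 with an adjusted p of 0.170 to 0.488.

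Socs5 (ENSMUSG00000037104, chr17:87107679-87137839, plus strand), its closest relative among the members, had 502, 471 and 536 normalized counts in Pdcd1f/f and 493, 460 and 540 in Pdcd1f/fLysMcre libraries. The ranges of the genotypes lay almost on top of each other. The log2 fold change was −0.01 with an interval of −0.23 to 0.21 (adjusted p = 0.949 from edgeR).

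Socs6 (ENSMUSG00000056153, chromosome 18, minus strand) had 1668, 1715 and 1764 normalized counts in Pdcd1f/f and 1797, 2082 and 1764 in Pdcd1f/fLysMcre libraries. The highest value was that of Pdcd1f/fLysMcre replicate 2, and the third replicates of both genotypes were alike. The log2 fold change was 0.13 (interval −0.04 to 0.31, adjusted p = 0.332 from edgeR). Without Pdcd1f/fLysMcre replicate 2 it was 0.06 with an adjusted p of 0.745.

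Socs7 (ENSMUSG00000038485, chr11:97362551-97398542, plus strand) had 1308, 1351 and 1364 normalized counts in Pdcd1f/f and 1468, 1427 and 1543 in Pdcd1f/fLysMcre libraries. Every Pdcd1f/fLysMcre library was above every control, with 14.1% of all genes doing the same in this direction. The means were 1341 ± 28.8 and 1479 ± 58.8 (SD, n = 3), and the log2 fold change was 0.14 (standard error 0.07, interval −0.01 to 0.30, adjusted p = 0.237 in edgeR). With the GC and length offsets it was 0.23 with an adjusted p of 0.0058, where 20.2% of all genes passed.

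The members differed in how they followed the libraries that stood apart. In order of the GC content of their longest transcripts, these were Socs1 with 58.8%, Socs3 with 58.7%, Socs7 with 53.8%, Cish with 53.1%, Socs5 with 47.8%, Socs2 with 45.4%, Socs6 with 39.9% and Socs4 with 38.5%. In Pdcd1f/f replicate 1, Socs1, Socs3 and Cish had 0.742, 0.800 and 0.828 of the mean of the other controls, Socs2 had 1.42 and Socs4 had 1.12. Socs7, GC-richer than Cish, had 0.964 there, and Socs6, among the members lowest in GC, had 0.959, so these did not follow the order of GC content. In Pdcd1f/fLysMcre replicate 2, Cish, Socs1 and Socs3 had 0.792, 0.828 and 0.874 of the mean of the other libraries of that genotype, Socs7 had 0.948 and Socs5 0.891, while Socs6 had 1.17 and Socs2 and Socs4 had 1.12 each. With the offsets the log2 fold change of Cish was −0.31 (interval −0.55 to −0.08, adjusted p = 0.0573 from edgeR), Socs2 was at 0.13, Socs5 at −0.01 and Socs6 at 0.03. With the offsets, the values of Cish, Socs2, Socs3, Socs4 and Socs6 were nearer to 0 than without them, while Socs1 (from 0.00 to 0.18) and Socs7 (from 0.14 to 0.23) were farther from 0, with intervals that then lay above 0, and Socs5 stayed at −0.01.

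**Figure D2:**
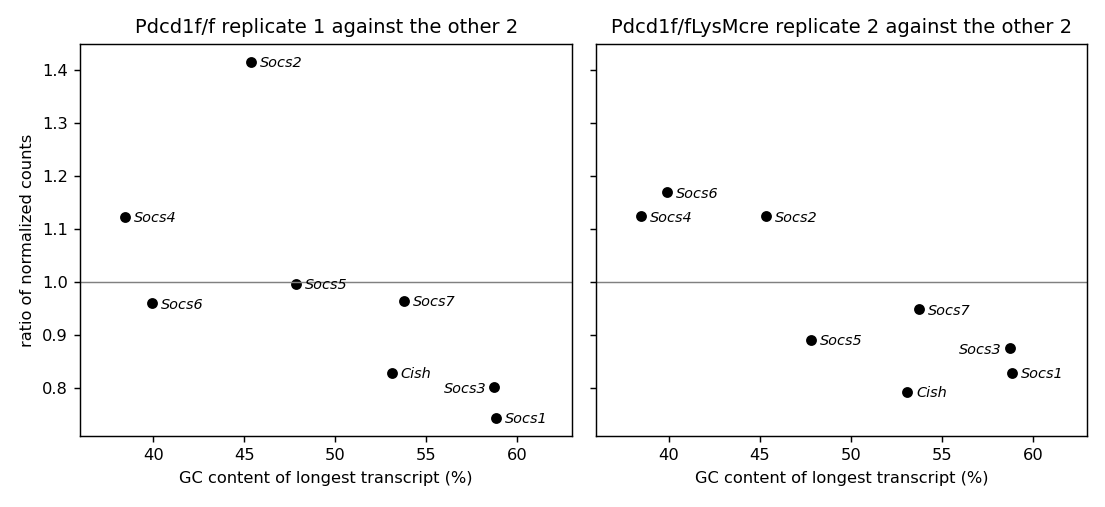
Normalized counts in Pdcd1f/f replicate 1 (left) and Pdcd1f/fLysMcre replicate 2 (right), divided by the mean of the other 2 libraries of the genotype, against the GC content of the longest transcript in percent, 1 point per gene. Socs1, Socs3 and Cish lie at 0.742 to 0.874 in both panels, Socs7, with a GC content above that of Cish, lies at 0.964 and 0.948, and Socs2 reaches 1.42 on the left.

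**Figure D3:**
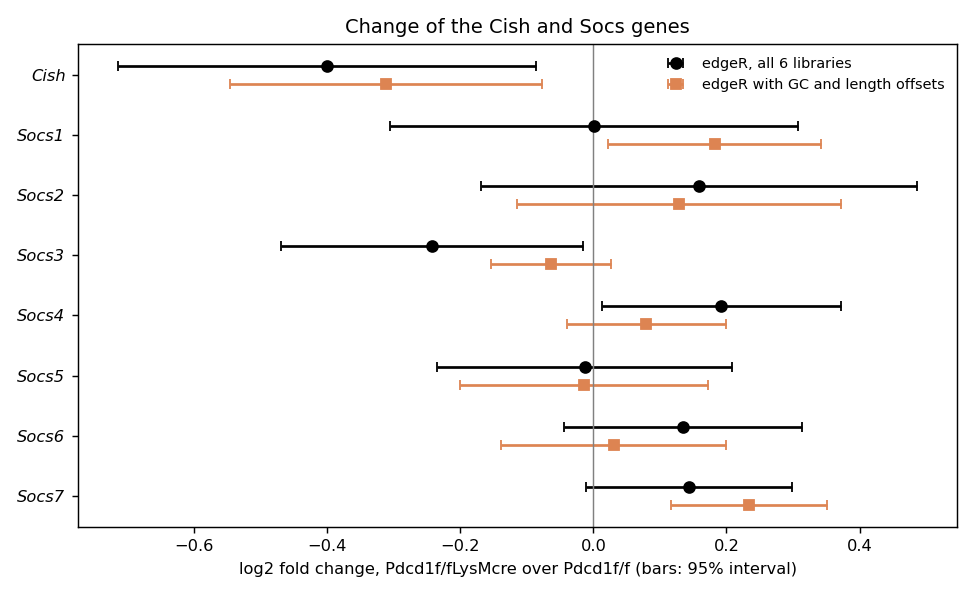
Log2 fold change of Pdcd1f/fLysMcre over Pdcd1f/f for the 8 genes (horizontal axis) with 95% intervals, from edgeR with all 6 libraries (black circles) and from edgeR with GC and length offsets (orange squares). Cish keeps an interval below 0 in both, −0.71 to −0.09 and −0.55 to −0.08, and Socs3 moves from −0.24 to −0.06.

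Levels were compared between the genes as normalized counts per kb of exon. In Pdcd1f/f TAMs, Socs3 had 7367 ± 1031 per kb (SD, n = 3), 30.9-fold above the next member, and in Pdcd1f/fLysMcre TAMs 6216 ± 558, 24.2-fold above the next. In Pdcd1f/f the others followed as Socs1 with 238 ± 44.5, Socs4 with 225 ± 15.6, Socs7 with 185 ± 4.0, Socs6 with 151 ± 4.2, Socs5 with 78.4 ± 5.0, Cish with 52.8 ± 5.6 and Socs2 with 31.5 ± 6.6. The libraries of Socs1 and Socs4 overlapped, and no other neighbours in this order did. In Pdcd1f/fLysMcre, Socs4 with 257 ± 18.3 came before Socs1 with 238 ± 27.0, followed by Socs7 with 204 ± 8.1, Socs6 with 166 ± 15.4, Socs5 with 77.6 ± 6.2, Cish with 39.9 ± 6.4 and Socs2 with 35.2 ± 2.6. Here Socs4 and Socs1, Socs1 and Socs7, and Cish and Socs2 overlapped. The first place of Socs3 did not depend on the length used, while the places below it did: per kb of the longest transcript, Socs6 came next with 284 ± 8.0 in Pdcd1f/f.

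**Figure D4:**
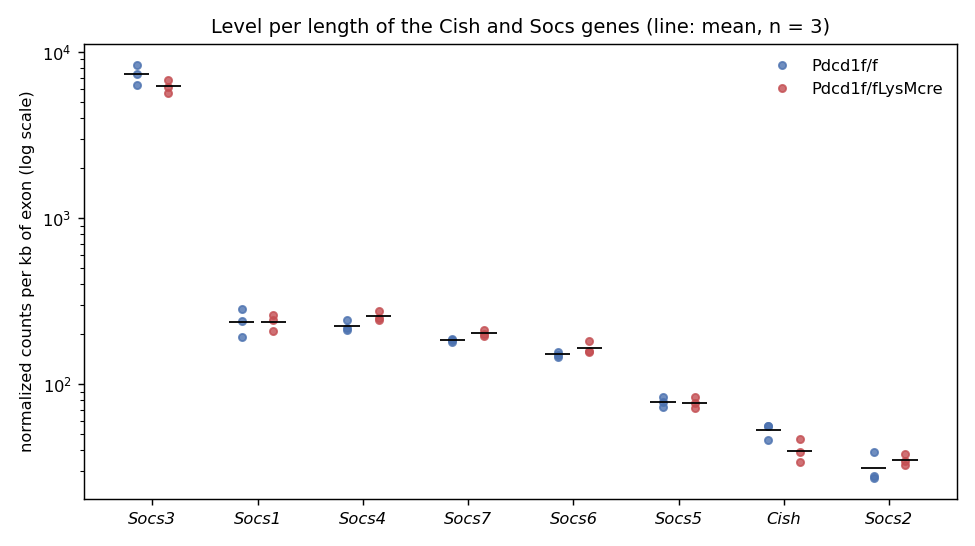
Normalized counts per kb of exon of the 8 genes on a log axis, with 1 point per library and the mean as a line (n = 3 for each genotype). Socs3 lies between 5671 and 8378 in all 6 libraries, and the other members lie between 27.2 and 282.

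The genes most like Cish across the 6 libraries were sought by the root mean square difference of log2 CPM, each gene centred on its own mean. The 3 nearest of 14468 genes were Lamtor4, which encodes a Ragulator subunit, with 0.0308, Vps9d1 with 0.0379 and Mroh2a with 0.0397, and 316 genes were within 0.1. Log2 fold changes near that of Cish follow from this choice, and they were −0.41, −0.36 and −0.37. Socs3 was the nearest other member, at place 575 with 0.116, and the remaining members were at places 3898 to 11615.

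The ligands and receptors on which these proteins act were read from the same fit. The list around GM-CSF, IL-3 and IL-5 had 0 of 5 tested genes past the threshold and 0 of 5 at an unadjusted p under 0.05, with a median log2 fold change of −0.11. Csf2, which encodes GM-CSF, was barely counted, with 7.30 ± 4.40 normalized counts in Pdcd1f/f and 9.27 ± 5.31 in Pdcd1f/fLysMcre (SD, n = 3). Its receptor chains were abundant: Csf2ra, the alpha chain, had 5451, 6799 and 7543 normalized counts in Pdcd1f/f and 5820, 4739 and 6596 in Pdcd1f/fLysMcre libraries, and these ranges overlapped (log2 fold change −0.20, adjusted p = 0.376 from edgeR). With 1 library left out, Csf2ra was at −0.33 to −0.09 with an adjusted p of 0.0429 to 0.790 in edgeR, past the threshold in 1 of 6 fits. Csf2rb, the common beta chain, had 13308 to 15442 and 12898 to 14212 (−0.07, adjusted p = 0.564), and Csf2rb2, the IL-3-specific beta chain of mice, had 7235 to 8061 and 7024 to 7157 (−0.11, adjusted p = 0.323), the latter without overlap. Csf2rb and Csf2rb2 are close copies, so short reads could have been split between them. Il3, Il5 and Il5ra had under 5 normalized counts in each library and were not tested.

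In the list of gp130, IL-10 and G-CSF signalling, to which SOCS3 belongs, 4 of 14 tested genes rose and 2 fell, beside 2.42% and 3.01% of all genes, and 9 of 14 had an unadjusted p under 0.05, beside 24.2%, with a median log2 fold change of 0.01. The ligand genes Il6 (log2 fold change 0.56, adjusted p = 0.0403), Lif (0.45, 0.0093), Csf3 (0.56, 0.0245) and Il10 (0.36, 0.0311) rose in edgeR's test. Il6 had between 149 and 193 normalized counts in Pdcd1f/f and between 236 and 278 in Pdcd1f/fLysMcre libraries, and Lif between 617 and 659 and between 860 and 878, with no overlap. The receptor genes Lifr (−0.68, adjusted p = 0.0039), for LIF, and Csf3r (−0.51, adjusted p = 0.0069), for G-CSF, fell, the latter from between 2302 and 2484 to between 1507 and 1799 normalized counts. When 1 library at a time was removed, Lifr was past the threshold in 6 of 6 fits, Csf3r in 5, Lif in 4, and Il6, Il10 and Csf3 in 1 each, the fit without Pdcd1f/f replicate 1.

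In the list of IL-4, IL-13 and common gamma chain receptors, 1 of 8 tested genes rose and 1 fell, beside 2.42% and 3.01% of all genes. Il4ra, the IL-4 receptor chain that SOCS1 restrains, fell from 28274, 33575 and 37187 to 18088, 16297 and 19595 normalized counts (−0.87 ± 0.10 on the log2 scale, fold change and standard error, adjusted p = 0.0010 in edgeR). Il7r, the IL-7 receptor chain, rose from 3339, 3050 and 3193 to 4912, 5509 and 5070 (0.69 ± 0.07, adjusted p = 0.0004). The groups did not overlap for either gene, as for 27.2% of all genes, and both stayed past the threshold in 6 of 6 fits with a library left out. Among interferon ligands and receptors, 1 of 5 fell, beside 3.01% of all genes, the interferon-gamma receptor chain Ifngr1 (−0.28, adjusted p = 0.0254). In the growth hormone, insulin, IGF-1, EGF and KIT list 2 of 8 fell, beside the same share, Igf1r (−0.36, adjusted p = 0.0202) and its ligand Igf1 (−0.60, adjusted p = 0.0328). These 3 genes were past the threshold in 2 of 6 fits with a library left out.

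**Figure D5:**
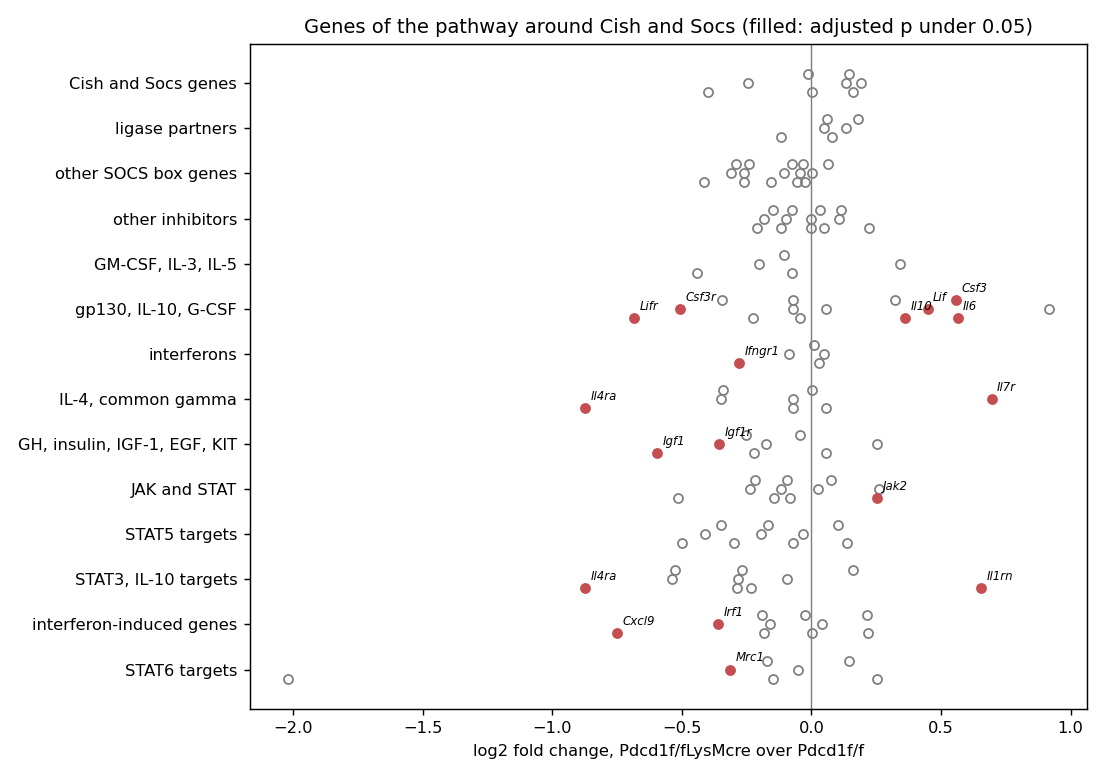
Log2 fold change of Pdcd1f/fLysMcre over Pdcd1f/f (horizontal axis) for the tested genes of each list (rows, spread vertically for legibility), with filled red points at an adjusted p under 0.05 in edgeR. The 8 Cish and Socs genes are all open circles between −0.40 and 0.19, while named receptor, ligand and target genes reach from −0.87 to 0.69.

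Among JAK and STAT genes, which carry the signal, 1 of 11 rose, beside 2.42% of all genes. That was Jak2, the kinase of the GM-CSF and growth hormone receptors, with 4732, 4398 and 4209 normalized counts in Pdcd1f/f and 5308, 5395 and 5189 in Pdcd1f/fLysMcre libraries (log2 fold change 0.25, adjusted p = 0.0484 from edgeR). It passed in 1 of 6 fits with a library left out. Jak1 was at 0.02 (adjusted p = 0.846), Stat3 at −0.14 (0.161), Stat5a at −0.12 (0.508) and Stat5b at −0.24 (0.117). Of 17 alternative fits, Stat5b was past the threshold in 4, Stat3 in 1, and Jak1 and Stat5a in 0. Stat5b passed in 1 of 6 fits with a library left out. The ligase partners of the SOCS box had 0 of 6 past the threshold and 1 of 6, Ube2f, at an unadjusted p under 0.05, with Elob at −0.12, Eloc at 0.05, Cul5 at 0.18 and Rnf7 at 0.06. The other genes for SOCS box proteins had 0 of 15 tested past the threshold and 2 of 15, Spsb1 and Spsb3, at an unadjusted p under 0.05, and the 12 untested genes of that list were below the filter. The tested genes had a median log2 fold change of −0.10, and 13 of 15 were below 0, beside 7299 of all 14469 genes. Spsb1 was at −0.41 (adjusted p = 0.0804), and Spsb1 and Ube2f are named here after their values were seen.

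Other inhibitors of the pathway had 0 of 13 past the threshold and 2 of 13, Ptpn1 and Ptpn2, at an unadjusted p under 0.05, with a median of −0.00. Ptpn11, which encodes SHP-2, the phosphatase that binds PD-1, had 4575 to 4775 normalized counts in Pdcd1f/f and 4590 to 4755 in Pdcd1f/fLysMcre libraries (log2 fold change −0.00 ± 0.06, standard error, adjusted p = 0.994 in edgeR). Ptpn6, for SHP-1, was at −0.12 (adjusted p = 0.441), and Usp18, the brake on type I interferon receptors, at −0.00 (adjusted p = 0.997).

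Target genes of the pathway were counted by list. STAT5 targets, the family of genes to which Cish belongs, had 0 of 10 past the threshold, beside 5.43% of all genes, and 5 of 10 at an unadjusted p under 0.05, beside 24.2%. Their median was −0.18, and 8 of 10 had a log2 fold change below 0, beside 7299 of all 14469 genes. Those at an unadjusted p under 0.05, named after their values were seen, were the cyclin genes Ccnd2 (−0.50, adjusted p = 0.0919 from edgeR), Ccnd3 (−0.30, 0.201) and Ccnd1 (0.14, 0.189), Id1 (−0.41, 0.151) and the survival gene Bcl2l1 (−0.20, 0.199). Pim1, an abundant STAT5-induced kinase, had 28941 to 31302 normalized counts in Pdcd1f/f and 28460 to 29721 in Pdcd1f/fLysMcre libraries (log2 fold change −0.03, adjusted p = 0.779 from edgeR), and Osm, oncostatin M, was at −0.07 (adjusted p = 0.610). Of 17 alternative fits, Pim1 kept its direction in 13 and Osm in 14, so their signs in the count of genes below 0 depended on the fit. STAT3 and IL-10 targets had 1 of 10 higher, Il1rn, the IL-1 receptor antagonist (0.65, adjusted p = 0.0004), and 1 lower, Il4ra, which is also in the receptor list. In that list 9 of 10 genes had an unadjusted p under 0.05, beside 24.2% of all genes, and 8 of 10 had a log2 fold change below 0, beside 7299 of all 14469. Bcl3 was at −0.09 (adjusted p = 0.632 from edgeR) and kept its direction in 14 of 17 alternative fits. Junb, named after its values were seen, was lowest of its genotype in both libraries that stood apart, with 24578 and 18678 normalized counts. Etv3 was instead highest of the controls in Pdcd1f/f replicate 1, with 5814. The part of these libraries in the counts of the list was not tested. Genes induced by interferons had 2 of 10 lower, the chemokine gene Cxcl9 (−0.75, adjusted p = 0.0012) and the transcription factor gene Irf1 (−0.36, adjusted p = 0.0446), and STAT6 targets 1 of 7, the mannose receptor gene Mrc1 (−0.31, adjusted p = 0.0219). Il1rn and Cxcl9 were past the threshold in 6 of 6 fits with a library left out, Mrc1 in 3 and Irf1 in 2. Over all 119 tested genes of these lists, 7 rose and 9 fell, beside 2.42% and 3.01% of all genes in each direction, and each of these 16 genes kept its direction in 17 of 17 alternative fits.

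Markers of the sorted cells and of others moved with the genotype. Of 9 macrophage markers 5 fell, Adgre1, Csf1r, Mertk, C1qa and C1qb, beside 3.01% of all genes. Their summed level over all 9 markers went from between 309946 and 357422 to between 260457 and 276722 normalized counts. Of 8 tumor and stromal markers 2 fell, Col1a2 and Pecam1, with a sum of 4356 to 4524 in Pdcd1f/f and 3719 to 4104 in Pdcd1f/fLysMcre. Of 4 tested neutrophil markers 1 fell, Mmp8, with a sum of 4033 to 4371 and 3649 to 3956, while 2 of 4 had a log2 fold change above 0, S100a8 (0.23, adjusted p = 0.220 from edgeR) and S100a9 (0.12, 0.412). Of 3 tested T cell markers Cd5 rose, with a sum of 625 to 721 and 611 to 727, mostly Cd4, and the defining Cd3d, Cd3e and Cd3g had at most 10.2 normalized counts. Dendritic cell markers had 0 of 5 past the threshold and 2 of 5 at an unadjusted p under 0.05, with a sum of 267 to 368 and 347 to 416. B cell markers had 0 of 1 tested past the threshold and a sum of 169 to 209 and 120 to 149, mostly Cd79b, with Pax5 at 0. NK cell markers had 0 of 1 tested past the threshold and a sum of 26.3 to 42.5 and 23.6 to 29.5, while mast cell and basophil markers reached 7.82 at most, with Mcpt8 and Fcer1a at 0, and erythroid markers 26.9. In bulk libraries, fewer cells of a type and less RNA per cell cannot be told apart, and the part of these markers in the values of Cish and the Socs genes was not tested.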

How the data were processed

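The authors made stranded polyA libraries, removed adapters with cutadapt 2.5, aligned 42-nt paired-end reads to GRCm38 with STAR 2.7.3a and counted them on Ensembl release 98 genes with featureCounts (Subread 1.6.2). Strand setting and multimapped reads are not given in the sources used here. They deposited raw counts (55421 genes, 26637 with any count) and a normalized signal table (16552 genes), in which counts are divided by a DESeq2 size factor of 0.895 to 1.08. Library totals were 41833823 to 51417209 counts.

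Genotypes came from the labels. edgeR 4.0.16 (R 4.3.3) was run on the raw counts after filterByExpr (minimum count 10, minimum total 15), TMM, robust glmQLFit and the two-sided glmQLFTest, with Benjamini-Hochberg adjustment over 14469 genes and a threshold of 0.05. Standard errors and 95% intervals came from the same fit. Libraries of a genotype had a per-gene chi-square between 5.42 and 43.0, and none was taken as a duplicate. Alternatives were RLE size factors, library size alone, other filters, DESeq2 1.42.0, limma-trend 3.58.1 on log2(normalized count + 1), a replicate block, loess offsets (span 0.5) on GC content and length, each library left out, and a threshold of 0.01. Removing both libraries that stood apart, running the offsets without Pdcd1f/f replicate 1, and the longest transcript as length were added after seeing the data. Coordinates, exon lengths and GC content came from GENCODE M21 (GRCm38), which gave symbols for 14461 and GC content for 14454 of the tested genes. The fits were tested on simulated counts with known changes.

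Named were all 8 members, list genes past the threshold, a set list of receptors, kinases, partners, inhibitors and targets, the 3 nearest genes to Cish, and checks. Some listed genes are not reported here. The members and lists were chosen with earlier results of these data known.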

Additional observations from a re-analysis of the deposited data

How the results depend on the processing

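Of the 8 members, 0 were past the threshold with all 6 libraries in edgeR, and 11 of 17 alternative fits also gave 0, as the threshold of 0.01 had to. The others gave 2 with no filter on low counts (Socs3 and Cish), 1 with the GC and length offsets (Socs7), 2 with these offsets and the replicate block (Socs7 and Cish), 3 without both libraries that stood apart (Socs3, Socs4 and Cish) and 2 with the offsets and without Pdcd1f/f replicate 1 (Socs7 and Cish). With each library left out the number was 0 to 3, and the 3 came without Pdcd1f/f replicate 1. The log2 fold change of Cish kept its direction in 17 of 17 alternative fits, from −0.53 to −0.30, with an adjusted p of 0.0251 to 0.380 and 5 past the threshold. Socs3 (−0.35 to −0.06), Socs4 (0.02 to 0.24), Socs7 (0.11 to 0.23) and Socs2 (0.06 to 0.34) also kept theirs in 17 of 17, Socs6 in 16, Socs5 in 14 and Socs1 in 9. The cause of these shifts was not tested.

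Over all genes, the 786 calls became 1951 with no filter, 1533 with DESeq2, 2918 with the offsets, 3148 with offsets and block, 3757 without both libraries that stood apart, 3404 with the offsets and without Pdcd1f/f replicate 1, 283 at a threshold of 0.01, and 222 to 3181 with a library left out. The offsets changed the split from 350 higher and 436 lower to 1913 higher and 1005 lower. Of the pathway genes, the 16 calls became 32, 27, 33, 36, 52, 39 and 7 in the same order, and 5 to 45 with a library left out, with 45 without Pdcd1f/f replicate 1. The order of the members by level per kb kept 2 of 8 places in Pdcd1f/f with coding length and 4 with the longest transcript. With CPM it kept 8, which was given, since both scales divide a library by 1 number.

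Over 14469 genes, the deviations of libraries with the same replicate number from their genotype means correlated with r of −0.0131, −0.0971 and 0.220. These deviations also followed GC content, so they cannot show whether the numbers mark a shared batch, and the main fit took the libraries as unpaired. With the replicate block, 0 members, 1027 genes and 22 pathway genes were past the threshold. Limits are the 3 libraries per genotype, the genotype and sex-linked transcripts moving together, and counts that cannot show protein.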
